A study of Mus musculus with 6 samples.

Results

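Lysine methylation of histones is written by methylases, most of them with a SET domain, and removed by demethylases of the LSD1 and Jumonji families. The site decides what a mark is associated with: methylated H3K4 with active promoters and enhancers, H3K36 and H3K79 with transcribed gene bodies, and H3K9, H3K27 and H4K20 with silencing or compaction. The transcripts of these enzymes were examined in group 2 innate lymphoid cells (ILC2), tissue lymphocytes without antigen receptors that make type 2 cytokines. Members were the rows of the deposited count table whose symbols start with Kmt2, Setd, Kdm, Ehmt, Suv39h, Suv420h, Nsd, Whsc1, Prdm2 or Ezh, or read Ash1l, Dot1l, Eed or Suz12, with Kdm3a left out. This gave 50 of 24421 rows. One of them, Nsdhl, is an enzyme of cholesterol synthesis that shares only the letters Nsd, so the label does not hold for it. It also fits loosely for the 5 SET-domain proteins without a settled histone role, Kmt2e, Setd3, Setd4, Setd5 and Setd6, and Eed and Suz12 are subunits without catalytic activity of their own. Names in the table are older symbols for 5 members: Suv420h1, Suv420h2, Setd8, Whsc1 and Whsc1l1 are annotated today as Kmt5b, Kmt5c, Kmt5a, Nsd2 and Nsd3.

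The libraries came from C57BL/6 mice, 3 from young animals (2 to 3 months) and 3 from aged animals (20 to 22 months). Brain ILC2 had been sorted by surface markers and kept for 2 weeks in medium with 20% fetal calf serum, stem cell factor and the cytokines IL-33, IL-7 and IL-2, so every group carries the same culture and cytokines. The labels name no genotype change and no pooling, and leave unsaid whether each library had its own animal or culture. The p-values therefore measure the spread between these libraries, which may be technical. Library totals ran from 16477157 to 20804291 counts. Values are in CPM, counts divided by the TMM-scaled library size, and adjusted p-values are Benjamini-Hochberg values of edgeR's quasi-likelihood test over 11805 tested genes, called under 0.05.

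The labelled cell type was checked against its markers. All 13 ILC2 markers were detected, but 8 of them differed between the ages, where 19.4% of all tested genes did. Gata3, the defining transcription factor, fell from 412 ± 52.8 to 191 ± 23.996 CPM (SD, n = 3 each), and Il1rl1, Il2ra, Icos, Il5 and Klrg1 fell too. Klrg1, a surface receptor of mature ILC2, stood at 76.5, 82.5 and 100.6 CPM in the young and at 0, 0.471 and 3.87 CPM in the aged libraries. Thy1 and Id2 rose, and the summed level, 12744 to 15435 CPM in the young and 12863 to 14998 CPM in the aged libraries, holds these changes of opposite sign. Eomes, Tbx21 and Ncr1, which define NK cells and ILC1, had no counts, nor had Cd3e, Cd4, Cd8a, Ms4a1 or Csf1r. The summed level of 8 microglial and macrophage markers was 3.86 to 15.5 CPM in the young and 61.1 to 100 CPM in the aged libraries, with Csf1r and C1qa at 0 in all 6. Of the 6 that were tested, 3 rose (Tmem119, Lyz2 and P2ry12) and 1 fell (Adgre1). Tmem119 made up most of the aged sum (36.2 to 67.5 CPM) and was at 0 to 1.91 CPM in young libraries. Lyz2 was at 0 in all young libraries and at 6.29 to 11.99 CPM in aged ones. P2ry12 stood at 0.559 to 5.48 CPM in young and 10.4 to 19.8 CPM in aged libraries. Adgre1 went from 1.73 to 4.12 CPM in young libraries to 0 in all aged ones. The part of these marker differences in the results below was not tested. Xist was present in all 6 libraries, at 248 ± 68.6 CPM in the young and 261 ± 26.8 CPM in aged ones (mean ± SD, n = 3 each), while Ddx3y, Eif2s3y, Uty and the Y-linked member Kdm5d, an H3K4 demethylase, had 0 counts in all 6.

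Of the 49 members tested (Kdm5d was not), 5 fell in aged libraries and none rose: Setd4, Kmt2e, Kmt2a, Kmt2d and Dot1l. Over all tested genes 8.14% fell and 11.2% rose, so the share of members that fell, 10.2%, was near the background. At an unadjusted p under 0.05, 9 members were lower and 1 was higher, where 15.4% and 16.1% of all tested genes were. The count of 5 became 2 without young library 1 (3.27% of all genes fell), 3 without young library 2 (3.95%), 3 without aged library 2 (5.34%), and 6 without aged library 1 (6.17%) or aged library 3 (6.92%). DESeq2 called 7 lower and 1 higher, beside 10.5% and 13.6% of all genes. The counts were 5 lower and 1 higher with limma-voom (8.45% and 12.1% of all genes) and with DESeq2 size factors in edgeR (7.55% and 11.7%), and 5 and 0 with a replicate block (6.78% and 10.2%). When library totals alone set the scale, 12 fell and none rose, beside 20.2% and 6.08%, and the split over all genes moved from 1325 higher and 961 lower to 718 and 2380. That scaling shifts the median log2 change of all tested genes from -0.10 to -0.52, and directions here are relative to TMM. In bulk RNA, fewer cells with a transcript and less transcript per cell cannot be told apart.

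Members as a whole lay below the table's centre. Their median log2 change was -0.47, beside -0.10 over all tested genes, and 39 of 49 were below 0, where 54.6% of all tested genes were. The medians of the list and of all tested genes were both negative under all 13 alternative settings, and the list's was the lower. With the length and GC offsets described below they were -0.11 and -0.02. Young and aged libraries were fully separated for 11 members, 10 of them lower in aged libraries and 1 higher, beside backgrounds of 18.8% and 19.3% for all tested genes. When library totals alone set the scale, 25 were fully lower and 1 fully higher, beside 35% and 11% of all tested genes. The share of counts in the 50 rows was 0.176%, 0.175% and 0.153% in young libraries 1 to 3, and 0.0947%, 0.0856% and 0.101% in aged libraries 1 to 3. Aged libraries varied more for these transcripts: the coefficient of variation had a median of 25.5% in young and 37.3% in aged libraries, against 25.8% and 29.6% over all tested genes, a difference that was not tested.

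**Figure D1:**
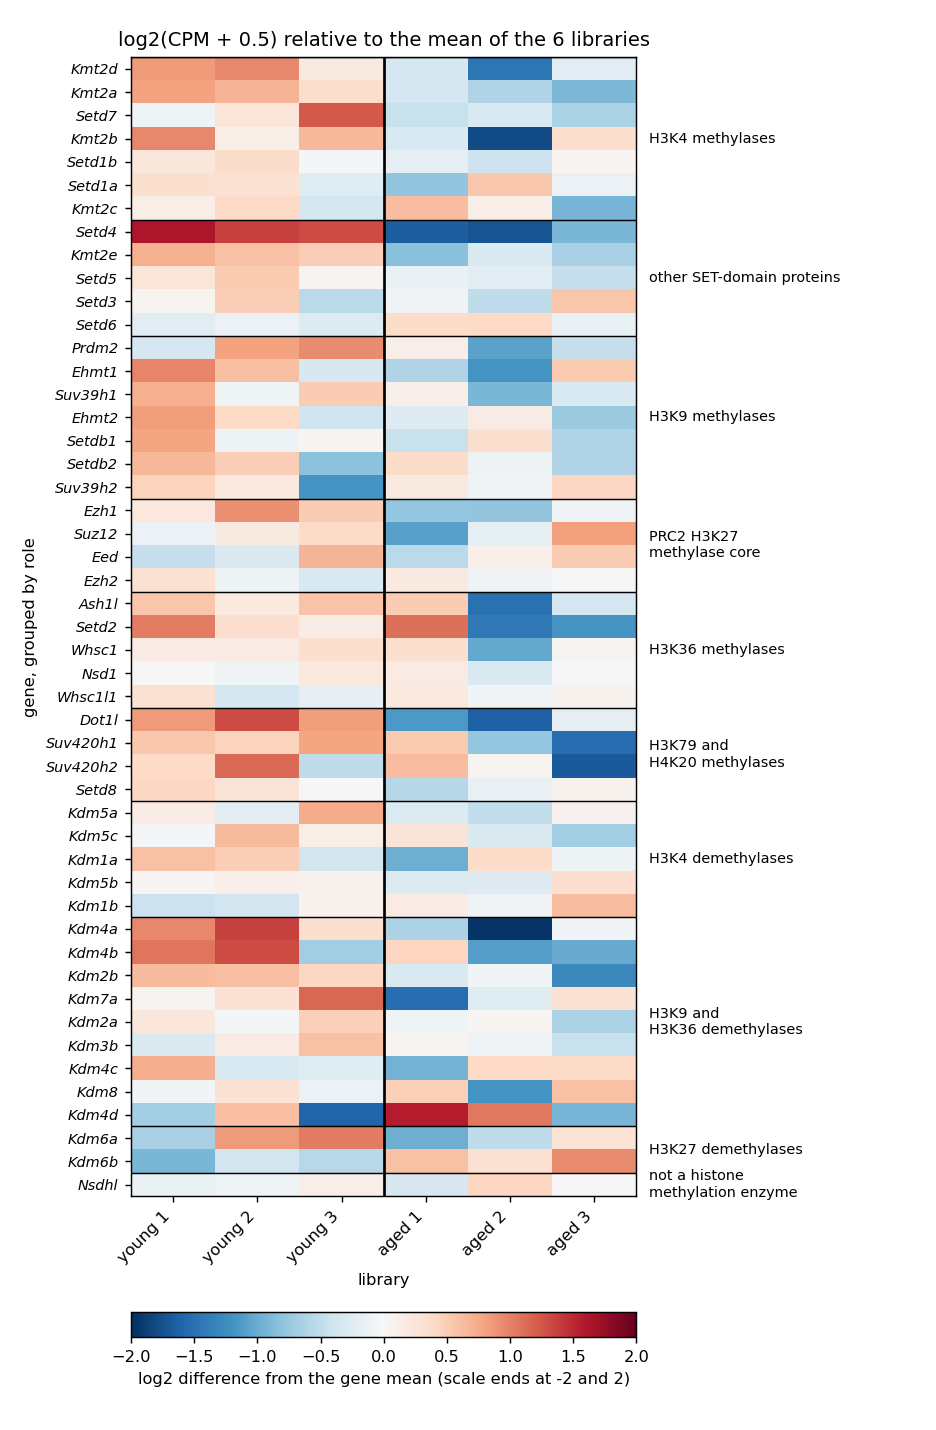
Colour shows log2(CPM + 0.5) of each of the 49 tested genes (rows, grouped by role) in each library (columns) relative to the gene's mean over the 6 libraries. Setd4 and Dot1l are high in all 3 young and low in all 3 aged libraries, while most rows change colour within a group.

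Long transcripts fell more often than short ones in this comparison, and these enzymes are long. The median summed exon length of tested members was 6081 bases, against 3150 over all tested genes. With all tested genes ranked by length into 5 equal groups, 28 of the 49 members were in the longest group, whose median log2 change over all its genes was -0.48, against 0.50 in the shortest. Members of that longest group had a median of -0.66. It held 4 of the 5 members that fell. Over all genes of that group 11.4% fell, which is the background for its 28 members. Across genes, Spearman's correlation of log2 change with length was -0.30 over the 49 members and -0.35 over 11705 tested genes with a length. Genes are not independent replicates and share the same 6 libraries. After offsets that remove each library's smooth trend on length and GC content, the members' median was -0.11 against -0.02 over all genes. Under these offsets 2 members fell, Setd4 and Kmt2e, where 6.4% of all genes fell, and 2 rose, Kdm6b and Whsc1l1, where 9.5% rose. Whether the trend with length comes from the cells or the libraries was not tested. Both values are therefore given below for the called members and for some of the others. Where 1 log2 change is given without a setting, it is the one without these offsets. The plot of log2 changes by role shows both for all 49 tested members.

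**Figure D2:**
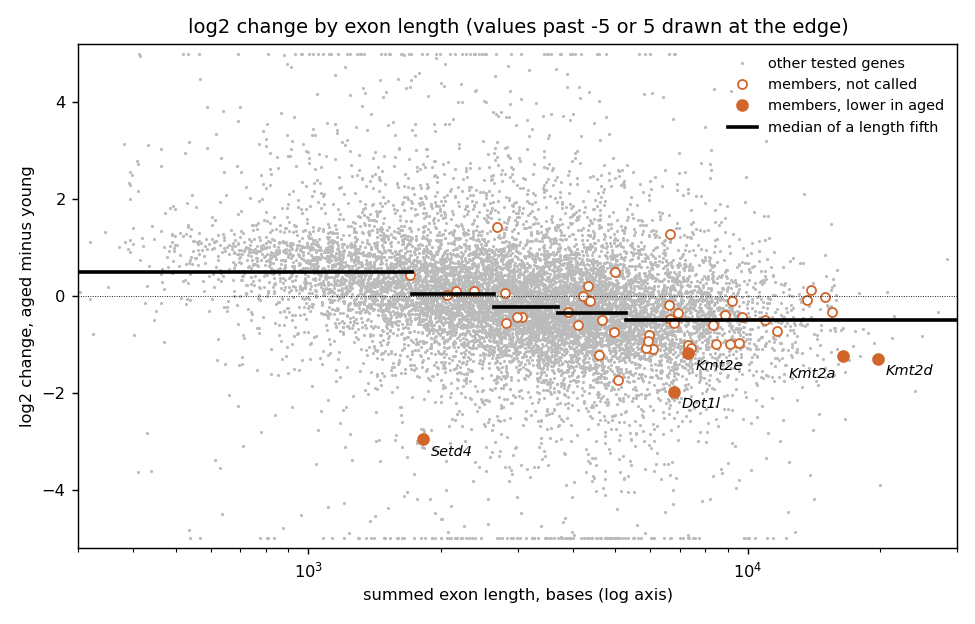
Each point is a tested gene, by its summed exon length in bases (log axis) and its log2 change, aged minus young; thick lines are medians of 5 equal groups by length, and genes beyond the length axis are not drawn. Kmt2a and Kmt2d lie at the long end below the median of -0.48, and Setd4, a short member, lies far below the medians of all groups.

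Setd4 had the lowest log2 change of any member. Setd4 encodes a small SET-domain methylase whose histone targets are less settled than those of its relatives. It stood at 35.4, 29.5 and 28.4 CPM in young libraries 1 to 3 and at 3.25, 3.03 and 5.72 CPM in the aged libraries 1 to 3. Every aged library was far below every young one. The aged mean was 0.129 times the young mean, a log2 change of -2.96 ± 0.41 (SE; edgeR adjusted p = 0.000653). The fall was called in all 13 alternatives, with log2 changes from -3.37 to -2.79 and adjusted p from 6.43e-11 to 0.00745. With length and GC offsets it was -3.14 ± 0.41. The gene lies on chromosome 16 (93583457 to 93604063, minus strand, GRCm38) and has 1829 bases of exon, which overlap no other annotated gene. Per kilobase of exon it went from rank 6 of 50 in young to rank 26 in aged libraries.

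Of the 4 MLL-family H3K4 methylases, Kmt2a and Kmt2d fell and Kmt2b and Kmt2c did not pass. Kmt2a (MLL1), required for blood stem cells and a maintainer of Hox gene expression, stood at 67.0, 61.5 and 48.7 CPM in the young and 30.0, 24.9 and 20.2 CPM in the aged libraries. Its groups did not overlap, and it fell by 1.24 ± 0.26 on the log2 scale (SE; edgeR adjusted p = 0.00702). Kmt2d (MLL4), which deposits H3K4 monomethylation at enhancers, stood at 79.7, 86.0 and 50.02 CPM in the young and 34.5, 15.8 and 37.8 CPM in the aged libraries. It fell by 1.29 ± 0.34 (adjusted p = 0.0223), with aged library 2 the lowest. Kmt2c (MLL3), the enhancer partner of Kmt2d, had 17.1 ± 4.43 CPM in the young and 16.9 ± 8.38 CPM in the aged libraries (n = 3 each, SD), and its log2 change of -0.02 ± 0.46 missed the threshold. Kmt2b (MLL2), the closest relative of Kmt2a, was not called, with a log2 change of -0.99 ± 0.55 (adjusted p = 0.250), and its groups overlapped. The ratios of Kmt2a to Kmt2b and of Kmt2c to Kmt2d counts overlapped between the ages (two-sided exact permutation p = 1 and p = 0.4). With 3 against 3 libraries this test cannot go below 0.1, so it cannot decide whether these relatives differ in their change.

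The calls of Kmt2a and Kmt2d were less firm than that of Setd4. Both were lost with length and GC offsets, where the log2 changes were -0.43 (adjusted p = 0.243) and -0.28 (adjusted p = 0.642). The call of Kmt2a was also lost without young library 1 (adjusted p = 0.0505), and that of Kmt2d without aged library 2 (0.0554), young library 1 (0.0900) or young library 2 (0.0894). Over all alternatives the adjusted p of Kmt2a ran from 0.000166 to 0.243 and that of Kmt2d from 0.00318 to 0.642. Of the other H3K4 methylases, Setd1a and Setd1b, which carry most H3K4 trimethylation, had log2 changes of -0.18 and -0.39, and Setd7, an H3K4 monomethylase that also acts on other proteins, had -1.08. None passed, though the groups of Setd7 did not overlap. Exons of Setd1a share 53.3% of their length with a predicted gene on the same strand, which leaves its counts uncertain.

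Kmt2e (MLL5) is placed in the MLL family by its SET domain but has no clear methylase activity, and it reads H3K4 methylation through a PHD finger. It stood at 95.4, 86.7 and 81.3 CPM in the young and 32.3, 47.1 and 36.6 CPM in the aged libraries. The lowest young library was far above the highest aged one. Kmt2e fell by 1.18 ± 0.22 on the log2 scale (SE; edgeR adjusted p = 0.00349), and by 0.71 ± 0.21 with length and GC offsets (adjusted p = 0.0431). It was called in all 13 alternatives, with adjusted p from 1.25e-05 to 0.0431. Its exons overlap those of Srpk2 on the opposite strand over 13.3% of their length. The other SET-domain proteins without a settled histone role in this set were Setd3, which methylates actin, Setd5 and Setd6, which methylates the NF-kB subunit RelA. Their log2 changes were 0.00, -0.56 and 0.43, and none passed.

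Dot1l encodes the sole known H3K79 methylase, which works outside the SET family and binds elongation complexes. It stood at 18.0, 24.7 and 17.8 CPM in the young and 4.11, 2.83 and 8.45 CPM in the aged libraries. All 3 aged libraries were below all 3 young ones. The log2 change was -1.97 ± 0.52 (SE; edgeR adjusted p = 0.0208), and the aged mean was 0.254 times the young mean. The call was lost with length and GC offsets (log2 change of -1.33, adjusted p = 0.107) and without young library 1 (0.0622), young library 2 (0.0942), aged library 1 (0.0554) or aged library 2 (0.0571), within a range of 0.00177 to 0.107 over all alternatives. The H4K20 methylases Setd8 (monomethylation), Suv420h1 and Suv420h2 (further methylation) had log2 changes of -0.43, -0.98 and -0.57, none of which passed. Setd8 passed when library totals alone set the scale (adjusted p = 0.0202, within a range of 0.0202 to 0.544 over the alternatives). Suv420h1 was at 15.6 CPM in aged library 1, within the young range of 14.9 to 19.0 CPM, and at 6.13 and 3.43 CPM in the other two. Without aged library 1 its log2 change was -1.79 and passed (adjusted p = 0.0464, within a range of 0.0464 to 0.673).

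**Figure D3:**
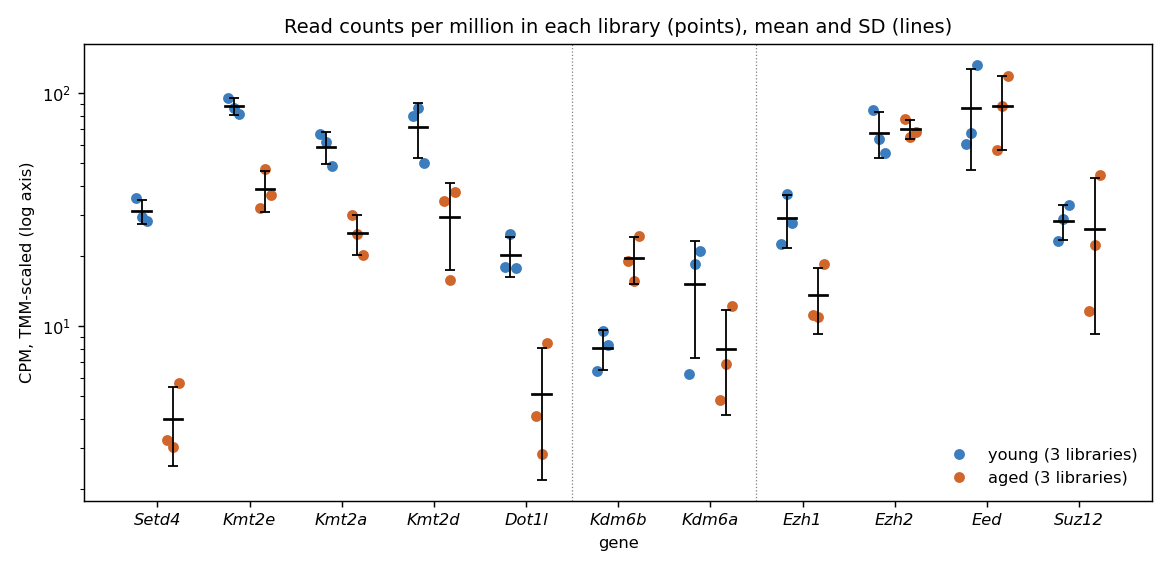
Points are TMM-scaled CPM on a log axis in each of 3 young and 3 aged libraries, with the mean and SD as lines; dotted lines part the 5 genes that fell, the H3K27 demethylases and the PRC2 core. The groups separate for Setd4, Kmt2e, Kmt2a, Kmt2d, Dot1l, Kdm6b and Ezh1 and overlap for Kdm6a, Ezh2, Eed and Suz12.

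Promoters are shown for 3 of the called members, Kmt2a, Kmt2d and Dot1l, whose calls were lost with length and GC offsets, and are taken from the RefSeq table of GRCm38.p6, which held 37 of the 50 members under their current symbols. Only bases upstream of the start and outside annotated exons are printed, 5′ to 3′ on the gene's strand, with capitals at GGGCGG and its reverse complement CCGCCC, the box bound by SP and KLF factors.
Kmt2a (chr9:44881297-44881539, minus strand): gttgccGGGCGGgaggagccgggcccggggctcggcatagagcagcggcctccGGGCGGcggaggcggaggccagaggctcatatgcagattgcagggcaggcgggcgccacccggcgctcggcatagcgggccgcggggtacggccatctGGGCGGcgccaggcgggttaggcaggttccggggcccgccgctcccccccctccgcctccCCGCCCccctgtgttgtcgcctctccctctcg
Kmt2d (chr15:98871206-98871455, minus strand): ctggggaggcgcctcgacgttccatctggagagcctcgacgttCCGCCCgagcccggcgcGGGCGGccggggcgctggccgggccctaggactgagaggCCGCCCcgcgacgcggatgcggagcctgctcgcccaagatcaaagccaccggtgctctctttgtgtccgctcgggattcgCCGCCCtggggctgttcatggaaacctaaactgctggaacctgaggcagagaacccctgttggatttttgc
Dot1l (chr10:80754953-80755202, plus strand): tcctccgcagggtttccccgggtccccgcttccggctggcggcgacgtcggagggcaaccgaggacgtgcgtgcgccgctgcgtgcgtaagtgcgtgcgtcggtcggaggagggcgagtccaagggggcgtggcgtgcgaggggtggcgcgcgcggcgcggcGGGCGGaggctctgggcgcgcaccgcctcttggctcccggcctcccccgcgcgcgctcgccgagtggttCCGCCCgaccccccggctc
The box occurs 4 times in the Kmt2a and Kmt2d windows and 2 times in that of Dot1l, and the windows hold 29, 26 and 44 CG pairs. It was present on either strand in 63.8% of 47 windows of 250 upstream bases of members (some have several starts). The share was 32.7% of 32851 such windows of all genes, tested or not. The other motifs counted were also more frequent in members' windows. These were CCGGAAG (12.8% against 6.91%), CCAAT (42.6% against 33.8%), CACGTG (8.51% against 6.02%) and ACGTG (21.3% against 16.6%). The median number of CG pairs was 21 in members' windows and 6 in all. The window of Setd4, 158 bases once exons were removed, held no match. The matches describe the letters only.

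Polycomb repressive complex 2 (PRC2) methylates H3K27. Of the 4 genes taken here as its core, Ezh1, Ezh2, Eed and Suz12, none passed the test, and Ezh1 had the lowest log2 change. Rbbp7, a histone-binding subunit given below with further PRC2 subunits, fell. Ezh2, the main catalytic subunit of PRC2 in dividing cells, stood at 84.4, 63.6 and 55.2 CPM in the young and 77.5, 65.1 and 68.3 CPM in the aged libraries. Its groups overlapped, with a log2 change of 0.05 ± 0.22 (SE; edgeR adjusted p = 0.902). Eed, the subunit that binds the mark, stood at 60.4, 67.4 and 133 CPM in the young and 57.1, 88.5 and 119 CPM in the aged libraries. Its log2 change was 0.02 ± 0.33, and 1 library of each group stood high. Suz12, the scaffold subunit, had 28.3 ± 4.93 and 26.2 ± 16.9 CPM (SD, n = 3 each) and a log2 change of -0.11 ± 0.44. The sign of the changes of Ezh2, Eed and Suz12 turned under some alternatives, none of which called them.

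Ezh1, the catalytic subunit that prevails in resting cells, stood at 22.5, 37.1 and 27.7 CPM in the young and 11.2, 10.98 and 18.5 CPM in the aged libraries. The groups did not overlap, but the log2 change of -1.10 ± 0.37 missed the threshold (SE; edgeR adjusted p = 0.0587). It passed in 3 of 13 alternatives, with adjusted p from 0.0142 to 0.331. The ratio of Ezh2 to Ezh1 counts, which needs no scaling between libraries, was 3.75, 1.71 and 1.99 in young and 6.91, 5.92 and 3.69 in aged libraries. The groups overlapped at young library 1 and aged library 3 (two-sided exact permutation p = 0.2, adjusted p = 0.5 over 10 pairs). Beside these, 2 of 20 proliferation genes rose, Cdk1 and Birc5, and 2 fell, Mcm3 and Mcm6, with a median log2 change of 0.01. Over all tested genes 11.2% rose and 8.14% fell. With length and GC offsets 5 of the proliferation genes rose (Cdk1, Birc5, Top2a, Ccna2 and E2f1) and none fell. With these offsets 9.5% of all tested genes rose and 6.4% fell. Per kilobase, Eed was the most abundant member in both groups, at 42.0 ± 19.3 and 42.6 ± 14.9 CPM per kilobase (SD, n = 3 each), and Ezh2 had rank 3 in both, at 24.2 ± 5.37 and 25.1 ± 2.30. Setd8 (30.9 ± 4.46) and Setd6 (25.7 ± 5.08) had rank 2 in young and aged libraries, and the SD ranges of neighbours among these ranks overlapped.

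The 2 H3K27 demethylases had log2 changes of opposite sign, and neither passed the test. Kdm6b (JMJD3), a demethylase induced by inflammatory signals, stood at 6.41, 9.53 and 8.29 CPM in the young and 18.9, 15.6 and 24.4 CPM in the aged libraries. It was the only member whose aged libraries were all above the young ones, and its log2 change was 1.28 ± 0.42 (SE; edgeR adjusted p = 0.0538). It passed in 4 of 13 alternatives, with adjusted p from 0.0114 to 0.170: with DESeq2 (0.0114), limma-voom (0.0459), DESeq2 size factors in edgeR (0.0485) and length and GC offsets (0.0145, log2 change of 1.88). Kdm6a (UTX), its X-linked relative, stood at 6.21, 18.4 and 21.0 CPM in the young and 4.84, 6.87 and 12.2 CPM in the aged libraries. Young library 1 lay among the aged ones, and the log2 change of -0.93 ± 0.58 did not pass. The ratio of Kdm6b to Kdm6a counts was 1.03, 0.518 and 0.394 in young and 3.90, 2.26 and 2.00 in aged libraries. The groups did not overlap, with a geometric mean ratio 4.37-fold higher in aged libraries and the smallest p that 3 against 3 allows (two-sided exact permutation p = 0.1, adjusted p = 0.5 over 10 pairs).

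Of the H3K9 methylases none passed, and 6 of 7 were below 0. Suv39h1 and Suv39h2, which trimethylate H3K9 in heterochromatin, had log2 changes of -0.74 ± 0.33 and 0.21 ± 0.44 (SE). The X-linked Suv39h1 stood at 53.1, 30.3 and 46.0 CPM in the young and 34.6, 16.8 and 26.2 CPM in the aged libraries, and overlapped between the groups. Ehmt1 (GLP) and Ehmt2 (G9a), which dimethylate H3K9 as a pair, had -0.80 ± 0.60 and -0.60 ± 0.34. Their count ratio was steady at 0.229 to 0.258 in young libraries and ran from 0.0793 to 0.542 in aged ones. Setdb1, which silences retroelements, its relative Setdb2, and Prdm2 (RIZ1) had -0.49, -0.32 and -1.01.

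The H3K36 methylases did not pass either. Nsd1 and Whsc1, which dimethylate H3K36, had log2 changes of -0.09 ± 0.27 and -0.33 ± 0.37 (SE). Whsc1l1 stood at 56.4, 35.6 and 40.6 CPM in the young and 52.5, 43.8 and 47.8 CPM in the aged libraries, with groups that overlapped and a log2 change of 0.12 ± 0.25. It passed only with length and GC offsets (0.80 ± 0.23, adjusted p = 0.0368, within a range of 0.0368 to 0.9997 over the alternatives), and its exons, at 13939 bases, are among the longest of the set. Setd2, the H3K36 trimethylase that follows RNA polymerase II, stood at 19.3, 11.8 and 10.3 CPM in the young and 20.5, 3.10 and 3.81 CPM in the aged libraries. Aged library 1 stood with the young libraries, and without it the log2 change went from -0.60 to -1.997 and passed (adjusted p = 0.0487, within a range of 0.0487 to 0.926). Ash1l, an H3K36 methylase that opposes Polycomb, showed the same order, at 11.5 CPM in aged library 1 and 2.49 and 6.10 CPM in the other two, with a log2 change of -0.72.

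The 5 tested H3K4 demethylases did not pass, and 4 of them were below 0. Kdm1a (LSD1), the founding lysine demethylase, had 35.8 ± 11.6 CPM in the young and 26.5 ± 11.5 CPM in the aged libraries, and Kdm1b (LSD2) had 20.5 ± 4.11 and 29.0 ± 7.37 CPM (n = 3 each, SD). Their log2 changes of -0.44 ± 0.39 and 0.51 ± 0.32 (SE) did not pass. With length and GC offsets they were -0.24 ± 0.37 and 0.81 ± 0.30, and neither passed (edgeR adjusted p = 0.736 and 0.0994). Of the Jumonji enzymes that remove H3K4 trimethylation, Kdm5a, Kdm5b and the X-linked Kdm5c had log2 changes of -0.49, -0.11 and -0.47. Kdm5b was even across the young libraries, at 19.8, 20.9 and 20.6 CPM, and at 16.1, 16.2 and 24.6 CPM in the aged ones.

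None of the 9 tested H3K9 and H3K36 demethylases passed, and 7 were below 0. Kdm4a (JMJD2A), which removes H3K9 and H3K36 trimethylation, stood at 16.2, 21.5 and 10.1 CPM in the young and 5.03, 1.68 and 7.68 CPM in the aged libraries. Its groups did not overlap, and the log2 change was -1.73 ± 0.62 (SE; edgeR adjusted p = 0.0767, and 0.0298 to 0.260 over the alternatives). Its relatives Kdm4b, Kdm4c and Kdm4d had log2 changes of -1.22, -0.07 and 1.42, with Kdm4d at 5 to 95 counts a library. Kdm2b, an H3K36 demethylase that brings PRC1 to CpG islands, stood at 11.3, 10.9 and 9.51 CPM in the young and 5.63, 6.73 and 2.60 CPM in the aged libraries, without overlap, and its log2 change of -1.08 ± 0.58 did not pass. Kdm2a, its paralog, had -0.44, and the ratio of Kdm2a to Kdm2b counts was 2.79 to 4.57 in young and 4.74 to 7.58 in aged libraries (two-sided exact permutation p = 0.1, adjusted p = 0.5 over 10 pairs). Kdm3b, Kdm7a and Kdm8 had -0.35, -0.97 and 0.11.

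**Figure D4:**
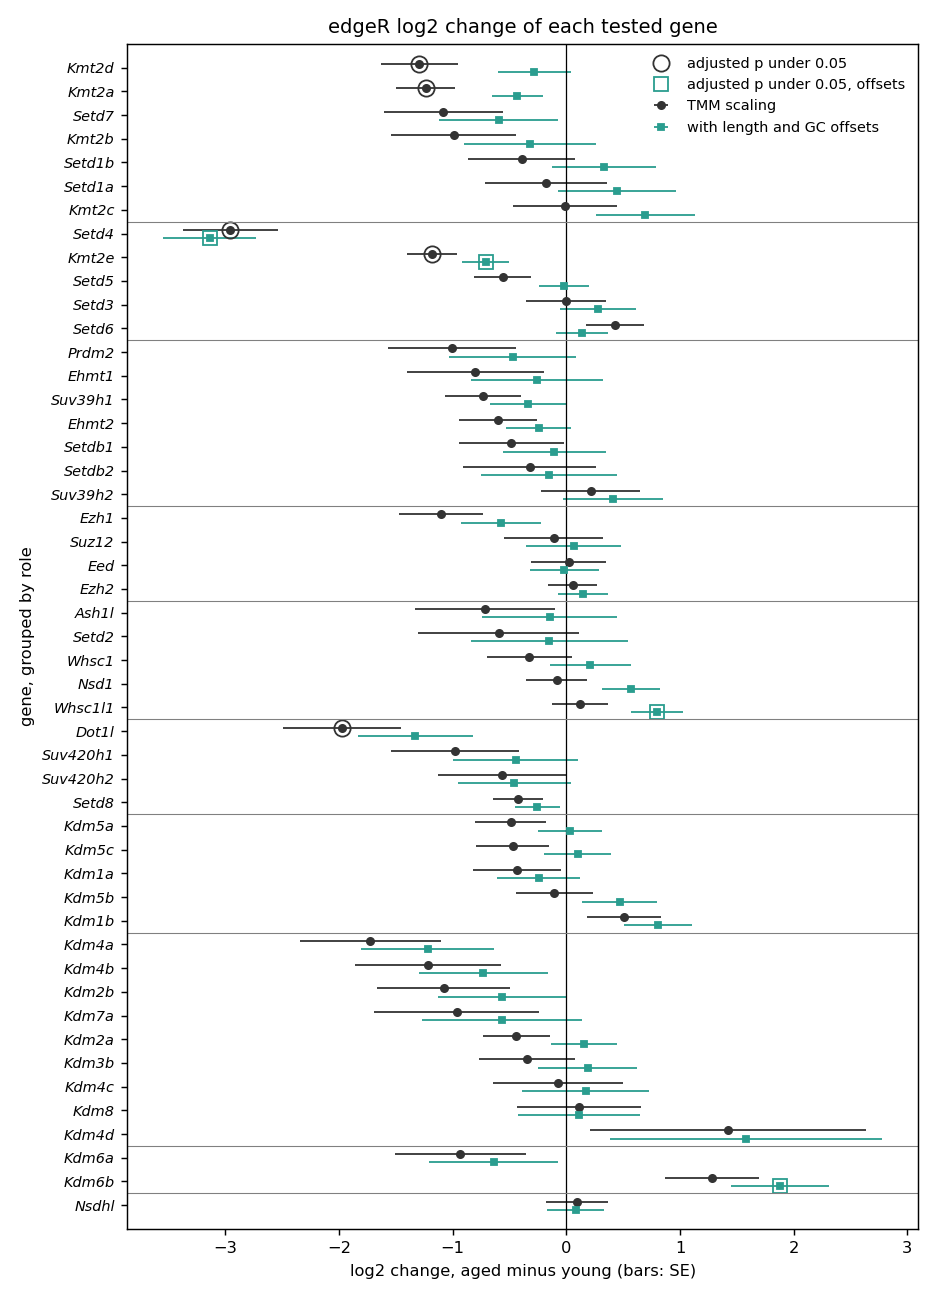
Log2 change (aged minus young, bars are SE) of the 49 tested genes by role, from edgeR with TMM scaling (circles) and with length and GC offsets (squares); outer rings and squares mark an adjusted p under 0.05. With offsets Setd4 and Kmt2e are marked lower and Kdm6b and Whsc1l1 higher, and Kmt2a, Kmt2d and Dot1l are marked only without them.

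Counts for methylases and demethylases are set side by side here, and their difference was not tested. Of 27 tested members that are methylases or PRC2 genes with a histone role, 3 fell and none rose. Over all tested genes 8.14% fell and 11.2% rose. The median log2 change of the 27 was -0.57. Of 16 tested demethylases none passed, with a median of -0.44. Nsdhl, the sterol enzyme, had 37.0 ± 3.78 and 39.5 ± 10.4 CPM (SD, n = 3 each) and a log2 change of 0.09. With length and GC offsets none fell and 1 rose in each set, beside 6.4% and 9.5% of all tested genes. The medians of methylases and demethylases were then -0.15 and 0.11. Levels per kilobase kept much of their order between the ages, with a Spearman correlation of 0.84 over the 49 tested members, which share the libraries within each group. The range ran from 0.515 (Kdm4d) to 42.0 CPM per kilobase (Eed) in young and from 0.438 (Kdm7a) to 42.6 (Eed) in aged libraries.

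The 10 paralog ratios gave no adjusted p under 0.5, and 3 against 3 cannot go below an exact p of 0.1. Besides those above, the ratio of Kmt2c to Kmt2d counts was 0.221 to 0.248 in young libraries and 0.722, 1.12 and 0.217 in aged libraries 1 to 3. Aged library 3 thus matched the young ones. Suv39h1 to Suv39h2, Kdm4a to Kdm4b, Kmt2a to Kmt2b, Setd1a to Setd1b and Kdm5a to Kdm5c overlapped between the groups.

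Of 13 COMPASS and MLL complex partners, 1 rose and 2 fell, and 19.4% of all tested genes were called in either direction. When library totals alone set the scale 5 fell (Ash2l, Cxxc1, Hcfc1, Paxip1 and Ncoa6) and none rose, beside 20.2% and 6.08% of all tested genes. Dpy30, a small core subunit, rose from 170 ± 30.9 to 301 ± 35.1 CPM (n = 3 each, SD) but lost its call when library totals alone set the scale (adjusted p = 0.0890). Hcfc1 and Ncoa6, a cofactor of Setd1 and MLL1 complexes and a subunit of MLL3 and MLL4 complexes, had log2 changes of -1.25 and -1.68 and fell, but lost their calls with length and GC offsets. Of 7 further PRC2 subunits, Rbbp7, a histone-binding subunit, fell from 369 ± 7.78 to 265 ± 43.7 CPM. It kept its call with length and GC offsets (edgeR adjusted p = 0.0298). With library totals 3 of the 7 fell (Aebp2, Rbbp4 and Rbbp7). Of 18 PRC1 subunits Phc3 fell (log2 change of -1.27), and of 6 H3K9 readers and partners Trim28, the corepressor that recruits Setdb1, fell (-0.66). Both calls were lost with length and GC offsets (adjusted p = 0.231 and 0.125). Of 8 tested LSD1 partners none passed. Rcor1, a corepressor that binds LSD1 and the one with the smallest p, was lower in every aged library (log2 change of -1.07, edgeR adjusted p = 0.0548), and it and Gfi1 passed with library totals (0.0110 and 0.0333).

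Outside the chosen families, 12 other tested genes were lysine methylases or Jumonji-family proteins, not all of the latter lysine demethylases. Of these 12, 2 rose and 1 fell. Over all tested genes 11.2% rose and 8.14% fell, the background for the counts in this paragraph. Prdm16 rose from 7.72 ± 0.265 to 21.4 ± 2.34 CPM and Jmjd6 from 79.4 ± 9.17 to 127 ± 23.1 CPM (n = 3 each, SD). Both calls were lost when library totals alone set the scale, and that of Jmjd6 also with length and GC offsets (adjusted p = 0.136), where Prdm16 kept its call (0.0045). Smyd5 fell from 47.8 ± 5.79 to 18.1 ± 4.49 CPM. Of 13 enzymes of the metabolism of the methyl donor or of oxoglutarate, which Jumonji demethylases use, 4 fell and none rose. Mthfd1, of the folate cycle, fell by 1.43, Ogdh, which consumes oxoglutarate, by 1.08 and Mtr, which regenerates methionine, by 2.11 on the log2 scale, and the calls of Ogdh and Mtr were lost with length and GC offsets. Of 8 tested arginine methylases Prmt2 fell by 1.51. For comparison, 3 of 26 tested histone acetylases and deacetylases fell, Ncoa3, Crebbp and Kat8, and none rose (median -0.23), and 2 of 12 DNA methylation enzymes fell, Dnmt1 and Dnmt3a (median -0.48). The members' own median was -0.47. With length and GC offsets the calls of Ncoa3, Crebbp, Dnmt1 and Dnmt3a were lost, and the medians were -0.14 for the acetylases and deacetylases, -0.08 for the DNA methylation enzymes and -0.11 for the members.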

How the data were processed

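The table the authors deposited holds raw whole-number counts per gene in each library. Per the submitters' processing notes, mm10, STAR 2.5.3a, Cufflinks 2.0, bcl2fastq 2.20.0.422, DESeq2 1.1 and FastQC 1.0.0 were used, with no roles stated. Which counter, annotation and strand setting made the counts is not given in the sources used here, so overlapping antisense genes cannot be told apart. The 27 rows with date-like symbols (0.153% of counts) stayed in the fit. Genes passing filterByExpr (minimum count 10, minimum total 15) were fitted in R 4.3.3 with edgeR 4.0.16 (TMM, glmQLFit, glmQLFTest, Benjamini-Hochberg). The SE is the log2 change divided by the root of F. Exon length, GC and coordinates came from GENCODE vM21 (GRCm38), with older symbols matched through RefSeq; 98.3% of symbols and all 50 members had a length. Length and GC offsets were loess fits (span 0.5) of each library's deviation from the mean. Alternatives used DESeq2 1.42.0, limma 3.58.1 (voom), other scalings, no filter, a replicate block and leaving out each library. Paralog ratios added 0.5 counts. The scripts were tested on simulated data. There the fit without offsets called unchanged genes when a length trend was simulated, and the fit with offsets made few such calls. The simulated trend was smooth in length, the kind the offsets are built to remove, and stronger than that in the data. It therefore cannot decide which of the 2 fits is right for these data. In the simulation without a length trend DESeq2 made more false calls than edgeR. Libraries of a group differed beyond counting noise (chi-square over its degrees of freedom, 35.7 to 89.2). Members, lists and tests were chosen with earlier results of these data known. Every member is named; called members, members of the same complex or pair, and the 2 with the smallest p in a role take precedence, and of each context list up to 3 called genes by smallest p, or 1 where none is called. Library values of further members, the proliferation genes, the genes called with library totals or offsets and those of the comparison lists were chosen after their values were seen.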

Additional observations from a re-analysis of the deposited data

How the results depend on the processing

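The count of members that fell (5) was 2 with length and GC offsets and 12 with library totals as the sole scaling, and 2 to 6 when a library was left out. The count that rose (0) was 1 with DESeq2, limma-voom or DESeq2 size factors in edgeR and 2 with length and GC offsets. The members' median (-0.47) was -0.11 with the offsets, -0.89 with library totals and -0.57 to -0.36 without a library. The cause of these differences was not tested.

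The titles share replicate numbers. Deviations from the group mean had correlations of 0.02, 0.01 and 0.04 between same-numbered libraries, and of -0.03 to 0.01 between differently numbered ones. Values this small cannot decide whether the numbers pair the libraries. With the number as a block the counts stayed at 5 lower and 0 higher and the median was -0.47, while Kdm8 turned to -0.056.

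Among single members not called, signs turned with length and GC offsets for Eed (-0.018), Kdm2a (0.16), Kdm3b (0.19), Kdm4c (0.17), Kdm5a (0.030), Kdm5b (0.47), Kdm5c (0.10), Kmt2c (0.69), Nsd1 (0.57), Setd1a (0.44), Setd1b (0.33), Setd3 (0.28), Suz12 (0.067) and Whsc1 (0.21). They turned with library totals for Eed (-0.38), Ezh2 (-0.36), Kdm8 (-0.30), Nsdhl (-0.33), Suv39h2 (-0.21) and Whsc1l1 (-0.30), with limma-voom for Kdm8 (-0.10), with DESeq2 for Kmt2c (0.021) and Setd3 (0.033), and with DESeq2 size factors in edgeR for Kmt2c (0.023) and Setd3 (0.035). Leaving out a library gave -0.25 to 0.49 for Eed, -0.043 to 0.26 for Ezh2, -0.29 to 0.38 for Kdm4c, -0.18 to 0.50 for Kdm8, -0.41 to 0.32 for Kmt2c, -0.20 to 0.038 for Nsd1, -0.13 to 0.25 for Nsdhl, -0.59 to 0.10 for Setd1a, -0.34 to 0.30 for Setd3, -0.11 to 0.56 for Suv39h2, -0.74 to 0.24 for Suz12 and -0.00034 to 0.35 for Whsc1l1. The log2 paralog differences spanned 0 without a library for Ehmt1 to Ehmt2 (-1.08 to 0.31), Kdm5a to Kdm5c (-0.38 to 0.36), Kmt2a to Kmt2b (-0.67 to 0.62) and Setd1a to Setd1b (-0.34 to 0.48). Depth limits the low members most: Kdm4d had 5 to 95 counts a library.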
